A study of Ovis aries with 32 samples.

Results

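The genes described here are the heat shock proteins and co-chaperones of sheep perirenal preadipocytes and adipocytes. They were taken by symbol, as the heat shock factors (HSF), the HSPA, HSPB, HSPD, HSPH and HSP90 genes, the DNAJA, DNAJB and DNAJC genes and the BAG genes, with the proteoglycan gene HSPG2 left out. The rule found 73 genes, represented by 106 of the 35219 transcripts and belonging to the 21271 genes listed. Of these, 65 reached a summed value of 10 normalized reads in at least 4 of the 32 libraries and were tested among 12737 genes. The other 8 were not tested: DNAJB8, DNAJC5G and HSPB9 were listed at 0 throughout, DNAJB7, DNAJB13, DNAJC5B and HSPB3 stayed below 10 in every library, and DNAJC6 reached 10 in 2 libraries. A few symbols carry the same letters but belong to none of these families: HSPBP1, HSPBAP1, HSF2BP and HSPB11 are kept as a group of other proteins matched by name. HSPBP1 among them is a nucleotide exchange factor of HSP70. HSPA8 and DNAJA1 are not analysed here.

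Heat shock proteins bind unfolded proteins and help them fold, travel or be degraded. The HSP70 proteins (HSPA) work in cycles of ATP hydrolysis, which the J-domain proteins (DNAJ) start and which the BAG and HSP110 proteins help to close by exchanging the nucleotide. The HSP90 proteins take over clients at a later step, HSP60 folds proteins inside mitochondria, and the small heat shock proteins (HSPB) hold unfolding proteins without using ATP. Heat shock factor 1 (HSF1) switches on the inducible members of these families when cells are heated or otherwise stressed, and the cells analysed here come from a model in which it was the mother that was heated, some time before the cells were taken.

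RNA was sequenced from 32 libraries of crossbred Columbia-Rambouillet sheep, 4 in each of 8 groups. Preadipocytes of perirenal fat came from near-term singleton fetuses that were male controls (MC), female controls (FC), growth-restricted males (MFGR) or growth-restricted females (FFGR). Each of these 4 origins was also sequenced after differentiation, and the names of those groups end in D (MCD, FCD, MFGRD and FFGRD, in the same order). Growth restriction followed exposure of the ewe to a hot environment during a stretch of gestation that ended well before term, which leaves a small placenta, and control ewes were kept cool and were pair-fed to the heated ewes. No group carried a transgene, and no group was heated in culture as far as the labels and the methods say. The labels do not state that the libraries of a group came from separate animals, so the p-values below measure the spread between these libraries. The deposited extraction text speaks of adipose tissue where the methods speak of pellets of preadipocytes and differentiated cells.

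The values of a library summed to 9.52 to 21.22 M normalized reads, with a median of 12.59 M (M, mega), and the heat shock proteins and co-chaperones made up 0.67 to 1.39% of each sum. All 8 adipocyte markers examined were higher after differentiation, although the lowest differentiated library had 8.59 normalized reads of ADIPOQ and the highest preadipocyte library 216. Of 7 markers of preadipocytes or stromal cells, DLK1 lay between 0 and 2.34 in all 32 libraries. The preadipocyte medians of the others were 302710 normalized reads for COL1A1, 288820 for COL3A1 and 10681 for PDGFRA. Those of PDGFRB, THY1 and CD34 were 2329.5, 539 and 26.7. In 9 libraries the values rose little, or fell, with the genomic span of the genes: the slope of the log2 values on the log10 span was -0.28 to 0.245, against 0.50 to 0.91 in the other 23. These libraries are MFGR1, FC2, FFGR2 and FFGR3 among the preadipocytes and MCD2, MCD4, MFGRD1, FCD2 and FFGRD3 among the differentiated cells, where the digit is the replicate number, and results that rest on them are given below with and without them.

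HSPB1 (HSP27), an actin-binding small heat shock protein, moved with this difference between libraries. Its values were 2578 to 13670 normalized reads (median 6346) in the 9 libraries and 854 to 2771 (median 1485) in the other 23, so that only MC4 of the 23 lay above the lowest of the 9. Without any overlap, HSPBP1, a nucleotide exchange factor of HSP70, was higher in the 9 libraries (170 to 476, against 67.2 to 127), and BAG5, a BAG protein that also acts on HSP70, was lower (163 to 342, against 410 to 911). Among all genes tested, 4.29% were higher and 4.01% lower in the 9 libraries without overlap, and 1 of the 65 members fell on each side. HSP90AB1 was 20667 to 90424 (median 45498) in the 9 libraries and 18802 to 40847 (median 27327) in the others.

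Differentiation was compared first, as the mean difference between differentiated cells and preadipocytes over the 4 origins. Of the 65 members, 14 were called (21.5%), 10 lower and 4 higher after differentiation, where a call needs an adjusted p below 0.05 and a fold above 1.5 in a limma fit of log2(value + 1). Among all 12737 genes, 27.2% were called, 14.8% lower and 12.4% higher, so the members were called no more often than genes in general. Their median log2 difference was -0.05, beside 0.035 for all genes. The falls were those of 3 of the 4 small heat shock proteins tested (HSPB6, HSPB7 and HSPB8), 4 of 9 HSP70 genes, HSF4, DNAJA4 and DNAJC17, whereas HSPA2 and 3 J-domain proteins rose. The best-known genes of the HSF1 response, HSPA1A, HSPB1, HSPH1, DNAJB1 and BAG3, were not called in either direction. In these bulk libraries fewer cells of a type and less RNA per cell cannot be told apart.

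**Figure D1:**
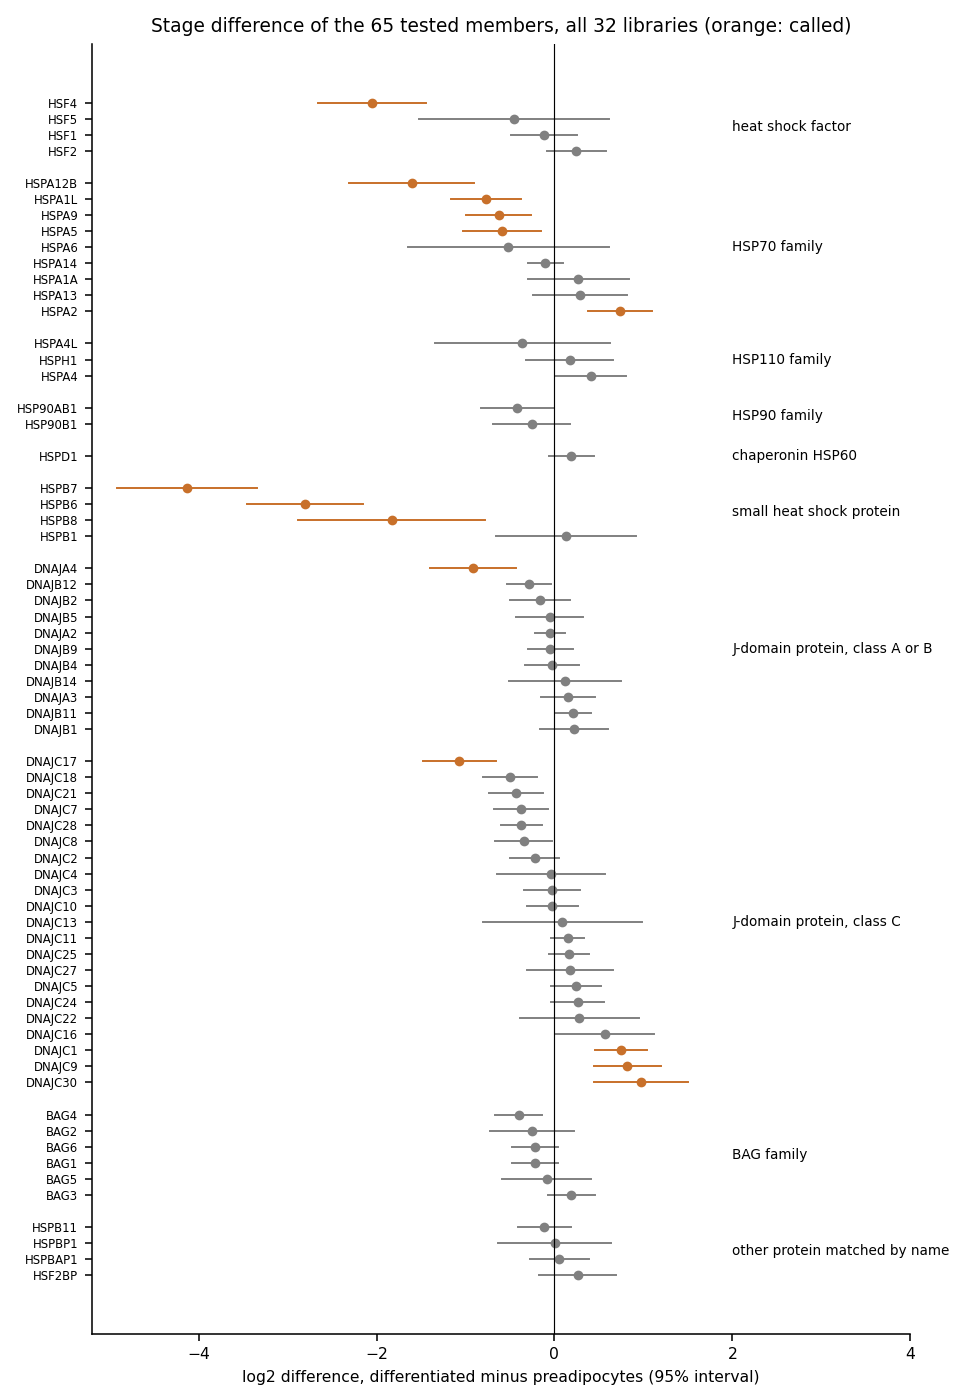
Log2 difference between differentiated cells and preadipocytes (x axis, differentiated minus preadipocytes, mean over 4 origins) of the 65 members tested, grouped by role on the y axis. Points are limma estimates from all 32 libraries, lines are 95% intervals, and orange marks the 14 called members, which run from -4.13 for HSPB7 to 0.98 for DNAJC30.

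Another 5 members had an adjusted p below 0.05 with a fold below 1.5, all lower after differentiation: DNAJC18, DNAJC28, BAG4, DNAJC21 and DNAJC7, with log2 differences between -0.50 and -0.37. When the libraries were scaled to equal totals instead, the median over all genes moved by 0.13 (log2), 8 members were called lower and 4 higher, and the share of called genes that were higher went from 45.4% to 55.6%. Differences of about this size, in either direction, therefore depend on the scaling.

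Of the 4 small heat shock proteins tested, 3 were called, all lower, and HSPB7 and HSPB6 had the largest differences of the 65 members. HSPB7, known from heart and skeletal muscle where it protects filamin and contractile fibres, lies on chromosome 2 (265570520 to 265573037, Oar_rambouillet_v1.0). Its values in the preadipocytes were 34.2, 58.8, 11.1 and 21.2 normalized reads in MC, 141, 29.6, 32.7 and 87.2 in FC, 60.4, 35.3, 41.3 and 14.5 in MFGR and 66.9, 156, 80.9 and 68.1 in FFGR. After differentiation they were 11.0, 0, 0 and 1.16 in MCD, 2.30, 10.5, 2.14 and 4.99 in FCD, 0, 4.19, 0 and 0 in MFGRD and 0.81, 0.79, 9.50 and 1.51 in FFGRD. Every preadipocyte library was above every differentiated library, with the closest pair, MC3 and MCD1, almost equal. The log2 difference was -4.13 ± 0.38 (SE, 16 against 16 libraries, adjusted p = 4.1e-09), and since several differentiated libraries held few or no reads it depends on the 1 added before taking logs.

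HSPB6 (HSP20), a partner of smooth muscle relaxation, showed the same separation. It lies on chromosome 14 (49196451 to 49198068). It ran from 149 to 539 normalized reads in the 16 preadipocyte libraries, with a median of 312, and from 3.97 to 138 in the 16 differentiated libraries, with a median of 54.2. The difference was -2.81 ± 0.32 (SE, adjusted p = 1.1e-07), a fold of 6.99. HSPB6 and HSPB7 were the only members whose stages did not overlap, beside 0.652% of all genes that were lower without overlap and 0.44% that were higher.

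HSPB8, which works with BAG3 in the selective removal of damaged proteins, fell from a median of 19.5 normalized reads (3.66 to 210) to 5.35 (0 to 44.6), with a log2 difference of -1.83 ± 0.51 (SE, adjusted p = 0.0065). Its stages overlapped widely: the highest preadipocyte value was that of MFGR4, and FCD2 held the highest differentiated one. Without the 9 libraries of low span slope the difference was -2.87 (adjusted p = 0.000161). HSPB7 and HSPB6 were at -4.09 and -3.02 without these libraries. HSPB1 did not pass the test (0.13, 95% interval -0.66 to 0.91, and -0.0054 without the 9 libraries).

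Markers of smooth muscle, a cell type that uses HSPB6, moved in the same direction. Of 4 markers, CNN1 (-2.73), DES (-3.43) and ACTG2 (-1.40) were called lower after differentiation, and MYH11 (-1.12, adjusted p = 0.052) was not. Their summed level was 2837 to 24251 normalized reads in the preadipocytes and 336 to 8232 in the differentiated cells, and no marker was at 0 in all libraries. Their part in the fall of the small heat shock proteins was not tested. CRYAB, the small heat shock protein alpha-B-crystallin, stands under a name the rule does not take and was not called (-1.35, adjusted p = 0.135).

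**Figure D2:**
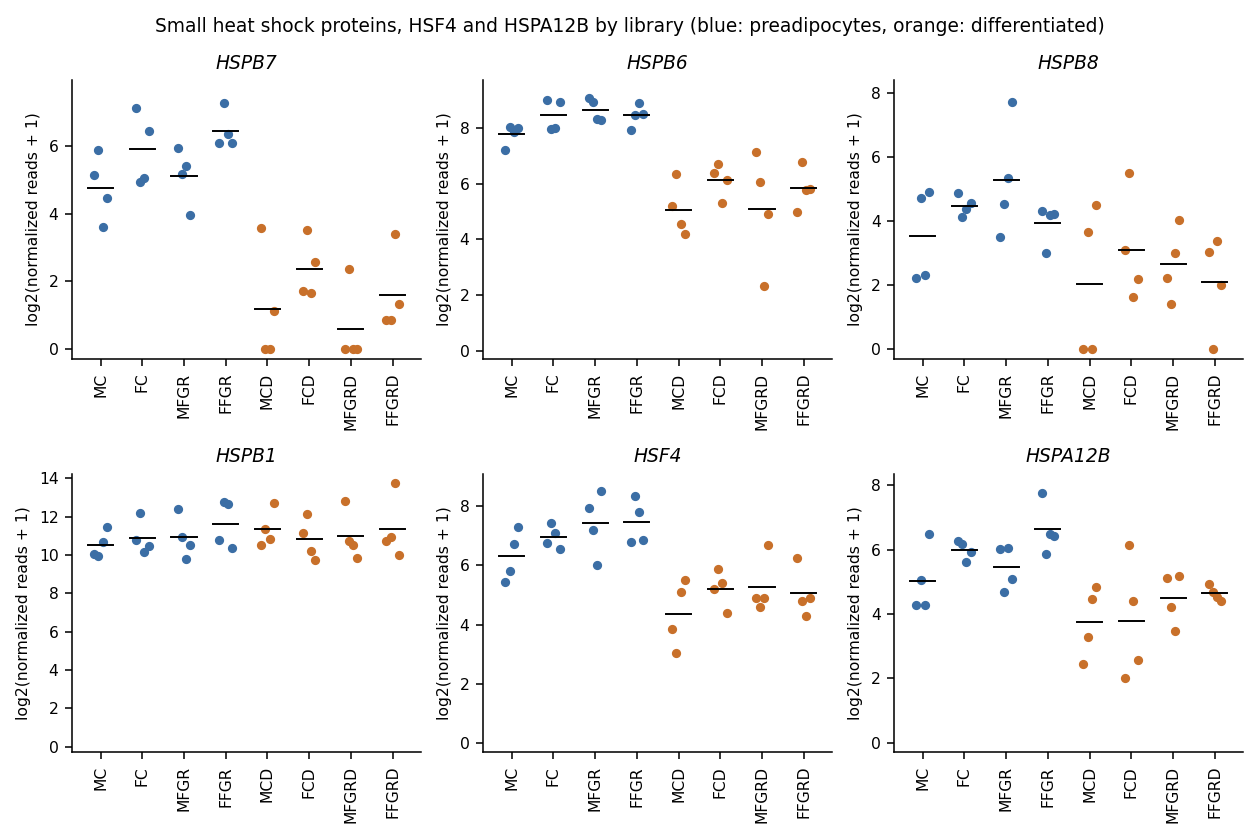
Log2(normalized reads + 1) of 6 members in each library (y axis), by group (x axis). Blue points are preadipocyte libraries, orange points differentiated libraries, 4 a group, and black bars are group means. HSPB7 and HSPB6 separate the stages in all 32 libraries, HSPB8, HSF4 and HSPA12B fall with overlap, and HSPB1 has a few high libraries in both stages.

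Among the heat shock factors, HSF4 alone was called. HSF4, best known for its role in the lens of the eye, lies on chromosome 14 (37584098 to 37588686). It was listed at 42.8, 54.5, 104 and 156 normalized reads in MC, 106, 171, 136 and 93.6 in FC, 243, 145, 63.9 and 365 in MFGR and 109, 323, 224 and 114 in FFGR. In the differentiated cells it was at 13.4, 7.32, 33.2 and 44.1 in MCD, 35.7, 57.7, 41.8 and 19.8 in FCD, 28.9, 23.5, 28.7 and 101 in MFGRD and 75.6, 26.6, 18.8 and 28.5 in FFGRD. Only the highest differentiated libraries, MFGRD4, FFGRD1, FCD2 and MCD4, reached into the preadipocyte range. The log2 difference was -2.05 ± 0.30 (SE, adjusted p = 4.2e-06). HSF1, the master regulator of the heat shock response, did not pass the test (-0.12, 95% interval -0.49 to 0.26), nor did HSF2, which binds DNA together with HSF1 (0.25, 95% interval -0.09 to 0.58).

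Of the 9 HSP70 genes, 4 were called lower and 1 higher. HSPA12B, a distant member of the family known from endothelial cells, had a median of 61.8 normalized reads (18.4 to 219) in the preadipocytes and 20.8 (3.04 to 70.5) in the differentiated cells, a log2 difference of -1.61 ± 0.34 (SE, adjusted p = 0.00053). Endothelial markers were scarce in both stages: CDH5 lay between 0 and 2.31 in all libraries, KDR was called lower (-1.43), and the 5 markers together summed to 10.1 to 92.7 in the preadipocytes and 5.84 to 286 in the differentiated cells. Their part in the difference of HSPA12B was not tested.

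HSPA5 (BiP), the HSP70 of the endoplasmic reticulum, fell from a median of 12324 normalized reads (5305 to 19939) to 7184 (3970 to 16138), and HSPA9 (mortalin), the HSP70 of mitochondria, from 9747 (5529 to 15114) to 5490 (3791 to 11545). The ranges overlap over most of their length. The log2 differences were -0.59 ± 0.21 for HSPA5 (SE, adjusted p = 0.034) and -0.63 ± 0.18 for HSPA9 (SE, adjusted p = 0.0070), both close to the fold limit of 1.5. HSPA5 was called in 22 of the 42 alternative fits and HSPA9 in 36, and neither was called with equal library totals. Without the 9 libraries of low span slope HSPA5 was at -0.64 (adjusted p = 0.058) and HSPA9 at -0.44 (adjusted p = 0.087), and neither was called.

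HSPA1L, a testis-type relative of the inducible HSP70, was lower after differentiation (median 86.1 before, 57.6 after, log2 difference -0.77 ± 0.19, SE, adjusted p = 0.0023). HSPA2, an HSP70 known for its role in sperm formation, rose from a median of 379 normalized reads (150.0 to 580.2) to 514 (369 to 1106), with a log2 difference of 0.74 ± 0.17 (SE, adjusted p = 0.0015). Without the 9 libraries of low span slope the HSPA2 difference was 0.58 (adjusted p = 0.027), below the fold limit. HSPA1A, HSPA1L, HSPA2 and HSPA6 are related genes, and any reads shared between them could bear on all 4 values. Such sharing was not tested.

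HSPA1A, the main inducible HSP70, was not called (0.27, 95% interval -0.30 to 0.83), nor was HSPA6 (-0.52, 95% interval -1.65 to 0.61), a strictly inducible HSP70. HSPA6 was at 478 normalized reads in FC1, 1609 in FCD2 and 1313 in FFGR1, and at 12.5 to 153 (median 40.1) in the other 29 libraries. HSPA1A was highest in the same libraries, at 7636, 10225 and 12020, beside 1417 to 6135 (median 2689) in the rest. The 3 libraries belong to 3 groups and both stages, and no other member was higher in all 3 than in each of the other 29. HSPA6 was singled out after its values were seen.

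**Figure D3:**
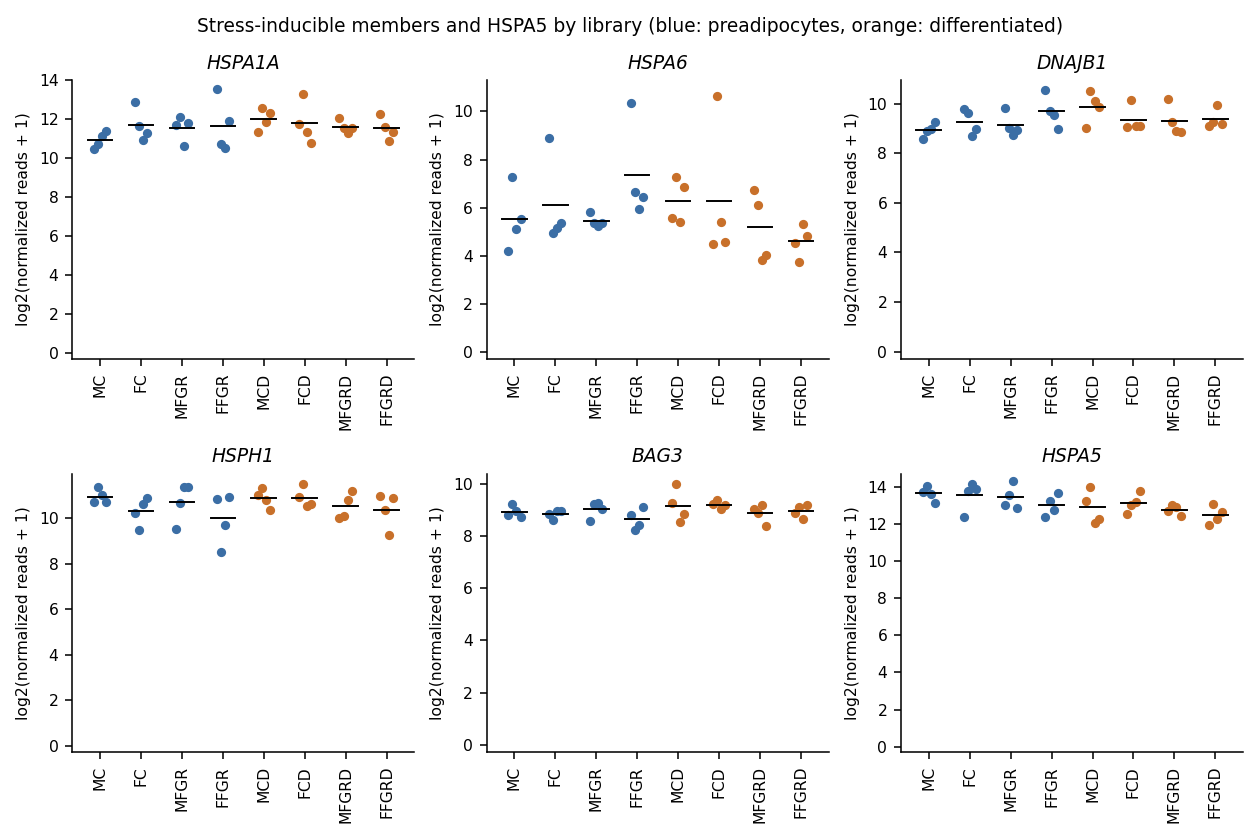
Log2(normalized reads + 1) of HSPA1A, HSPA6, DNAJB1, HSPH1, BAG3 and HSPA5 in each library (y axis), by group (x axis). Blue points are preadipocyte libraries, orange points differentiated libraries, 4 a group, and black bars are group means. FC1, FFGR1 and FCD2 stand above the rest in HSPA6 (478 to 1609 normalized reads) and in HSPA1A, and the stages overlap in all 6 genes.

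None of the HSP110, HSP90 and HSP60 members was called. HSPH1 (HSP105), the inducible HSP110, was at 0.17 (95% interval -0.32 to 0.66). HSP90AB1, the constitutive HSP90 of the cytosol, was at -0.42 (95% interval -0.82 to -0.01, adjusted p = 0.11), and HSP90B1 (GRP94), the HSP90 of the endoplasmic reticulum, at -0.25 (95% interval -0.69 to 0.18). HSPD1, the mitochondrial HSP60, was at 0.19 (95% interval -0.06 to 0.44). The inducible HSP90 gene, listed under its older name HSPCA and so outside the rule, was at -0.18 (adjusted p = 0.32), and the HSP60 partner HSP10 at 0.22 (adjusted p = 0.65).

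Of the 11 class A and B J-domain proteins tested, DNAJA4 was called. DNAJA4, which works in cholesterol synthesis and with HSP70, had a median of 317 normalized reads (135 to 529) before and 150.3 (77.7 to 367) after differentiation, a log2 difference of -0.91 ± 0.24 (SE, adjusted p = 0.0035). DNAJB1 (HSP40), the main inducible J-domain protein, was at 0.22 (95% interval -0.16 to 0.60), and DNAJB9 (ERdj4), induced by stress of the endoplasmic reticulum, at -0.04 (95% interval -0.30 to 0.21). DNAJB2, a neuronal J-domain protein that delivers clients to the proteasome, was at -0.17 (95% interval -0.50 to 0.17).

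The class C J-domain proteins held 3 of the 4 rises. DNAJC1, an endoplasmic reticulum protein, went from a median of 921 normalized reads (742 to 1500) to 1731 (600.3 to 2468), a log2 difference of 0.75 ± 0.14 (SE, adjusted p = 0.00017). It was lowest after differentiation in FCD2, the only differentiated library below every preadipocyte value. DNAJC9, which also escorts histones, went from 150.1 (103 to 338) to 278 (211 to 468), a log2 difference of 0.82 ± 0.18 (SE, adjusted p = 0.00085). DNAJC30, a mitochondrial protein, was scarce, at 2.59 to 17.2 normalized reads before and 9.27 to 63.3 after differentiation, with a log2 difference of 0.98 ± 0.26 (SE, adjusted p = 0.0039). Its highest values, in MCD2, FCD2, MFGRD1 and FFGRD3 (25.2 to 63.3), were those of libraries of low span slope. The other 23 libraries stopped at 15.8. Without the 9 libraries the DNAJC30 difference was 0.65 (limma adjusted p = 0.017) and still called.

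DNAJC17, a splicing-related member, fell from a median of 199 (112 to 427) to 96.3 (45.7 to 204), a log2 difference of -1.07 ± 0.20 (SE, adjusted p = 0.00013). Its interval on chromosome 7 overlaps those of ZFYVE19 and C15orf62, so reads of the genes may be shared. The remaining 17 class C members were not called. All 6 BAG genes, which release the substrate of HSP70, were not called, including BAG1 (-0.22, 95% interval -0.48 to 0.04) and BAG3 (0.19, 95% interval -0.08 to 0.46). The 4 other proteins matched by name had differences of -0.11 (HSPB11) to 0.26 (HSF2BP), and none was called.

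Neighbouring parts of the folding machinery were counted for comparison. Of 20 further HSP90 co-chaperones and HSP70 cofactors tested, FKBP5, an immunophilin that binds HSP90 and a known target of glucocorticoids, rose from a median of 472 normalized reads (101 to 906) to 21390 (4118 to 31697), a log2 difference of 5.29 ± 0.31 (SE, adjusted p = 2.9e-12). SIL1, an exchange factor of HSPA5, fell (-0.64 ± 0.15, SE, adjusted p = 0.0019), and the other 18 were not called. Among all genes tested, 27.2% were called. FKBP5 was thus higher in every differentiated library than in any preadipocyte library. In the fit reported its difference was larger than that of any of the 65 members. HSPB7, the member with the largest difference, ranged from -5.46 to -4.03 over the alternative fits.

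Of 21 chaperones and regulators of the endoplasmic reticulum stress response, 4 fell and 1 rose, beside 14.8% of all genes called lower and 12.4% higher. DDIT3 (CHOP), a transcription factor of prolonged stress, fell by 1.61 on the log2 scale (SE 0.22, adjusted p = 1.5e-06), and TRIB3, its target, fell by 1.46 (SE 0.39, adjusted p = 0.0042). The other falls were those of ATF4 and XBP1, also transcription factors of this response. HERPUD1, which takes part in degradation at the endoplasmic reticulum, rose (1.30 ± 0.23, SE, adjusted p = 5.5e-05). None of 11 TRiC chaperonin and prefoldin subunits and none of 28 proteasome subunits was called, with median log2 differences of -0.03 and 0.01, beside 0.035 for all genes.

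The 4 origins were then compared one by one, 4 against 4 libraries each, in the same fit. In MC, 5 members were called (HSPB7, HSPB6 and HSF4 lower, DNAJC30 and HSPA2 higher), 7.69% of the 65, beside 8.35% of all genes (4.55% lower and 3.8% higher). In FC, HSPB7 and HSPB6 were called (3.08%, beside 2.52% of all genes, 1.44% lower and 1.08% higher). In MFGR, HSPB7, HSPB6 and HSF4 were called (4.62%, beside 5.13%, of which 3.1% lower and 2.03% higher), and in FFGR these 3 with DNAJC17 lower and DNAJC1 higher (7.69%, beside 10.3%, of which 5.99% lower and 4.33% higher). All 14 members called over the 4 origins had the same sign in each origin, and HSPB6 and HSPB7 were called in all 4.

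HSPB7 differed by -3.60 in MC, -3.54 in FC, -4.53 in MFGR and -4.86 in FFGR (SE 0.77 each), and HSPB6 by -2.71, -2.34, -3.55 and -2.62 (SE 0.63 each). Whether growth restriction changed the stage difference was tested directly, as given further on, and no gene was called. The replicate numbers pair the stages of FC and MFGR by the check described below. With these numbers as a block, 4 members were called in FC (6.15%, beside 5.59% of all genes) and 5 in MFGR (7.69%, beside 9.01%). Counts in single origins rest on single libraries: without MCD2 the count in MC was 2, without MC3 or MC4 it was 3, without FCD3 none was called in FC, and without any other FC or FCD library but FCD2 it was 1. HSPB6 in FC was called in 7 of 19 alternative fits and was lost on the FC and FCD libraries alone and without any 1 of 7 of these 8 libraries. HSPB7 in FC was called in 15 of 18. HSF4 was called in 11 of 18 in MC, 10 of 18 in MFGR and 16 of 18 in FFGR. Without the 9 libraries of low span slope it was called in none of these origins. HSPA2 in MC was called in 9 of 19 and DNAJC30 in MC in 14 of 18. In FFGR, DNAJC17 was called in 11 of 19 and DNAJC1 in 12 of 19. The count in FFGR was 3 without FFGR2, FFGRD1 or FFGRD2.

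**Figure D4:**
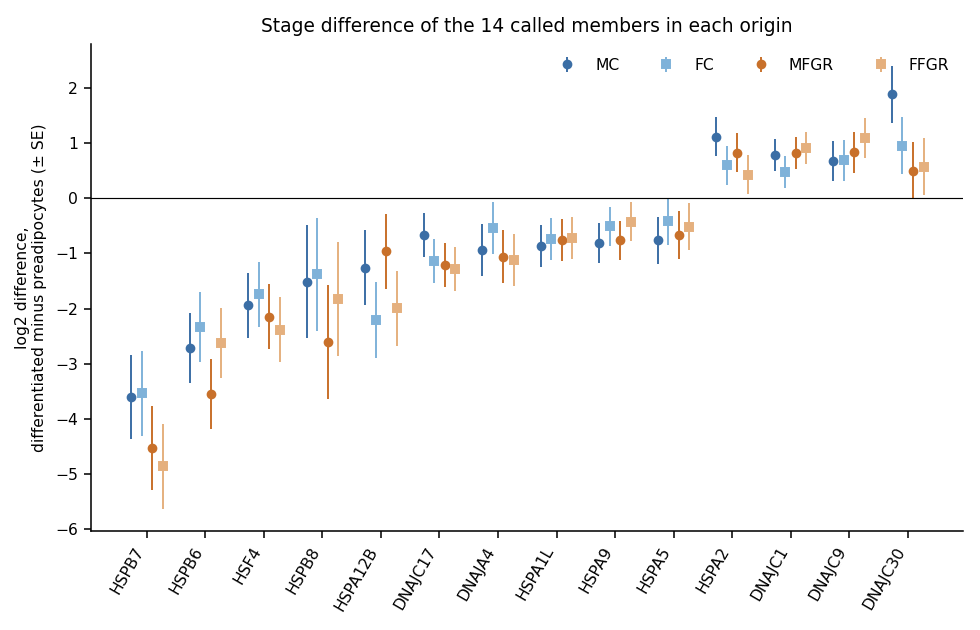
Log2 difference between differentiated cells and preadipocytes (y axis, differentiated minus preadipocytes) of the 14 called members (x axis) in MC, FC, MFGR and FFGR. Points are limma estimates from 4 against 4 libraries and bars are standard errors. All 14 keep their sign in the 4 origins, and HSPB7 and HSPB6 lie farthest below 0.

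Growth restriction was compared within each stage, 8 growth-restricted against 8 control libraries, since the model rests on heating of the mother. No member was called in preadipocytes or in differentiated adipocytes, and limma called none of the 12737 genes (0% in both). At an unadjusted p below 0.05, no member stood in preadipocytes, beside 2.7% of all genes, and 1 of 65 in differentiated adipocytes (DNAJC1), beside 1.07%. The members' log2 differences ran from -0.59 to 0.79 in preadipocytes and from -1.38 to 0.79 in differentiated adipocytes. Their 95% intervals reached a median of 0.53 to either side, and 43 of 65 members in preadipocytes and 48 in differentiated adipocytes had intervals that stayed between -1 and 1. Changes smaller than these intervals were not detectable with this number of libraries. The intervals are not adjusted for the 12737 genes tested, so changes larger than they show could also go uncalled.

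The genes of the HSF1 response gave these differences between growth-restricted and control preadipocytes. HSPA1A was at 0.30 (95% interval -0.50 to 1.10), DNAJB1 at 0.31 (-0.23 to 0.85), HSPH1 at -0.27 (-0.96 to 0.42), HSPB1 at 0.57 (-0.55 to 1.68) and HSF1 itself at 0.19 (-0.34 to 0.72). In differentiated adipocytes HSPA1A was at -0.34 (-1.13 to 0.46), DNAJB1 at -0.27 (-0.81 to 0.27), HSPH1 at -0.45 (-1.14 to 0.24), HSPB1 at 0.08 (-1.03 to 1.20) and HSF1 at -0.09 (-0.62 to 0.43). The adjusted p was 0.84 or more for each.

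In preadipocytes, HSP90B1 had the smallest p of the members. Its values were 48186, 39189, 38251 and 26887 normalized reads in MC and 45036, 19993, 32142 and 31795 in FC. In the growth-restricted cells they were 14841, 30017, 44230 and 28265 in MFGR and 31218, 10613, 18594 and 20009 in FFGR. The groups overlap, and the lowest 3 growth-restricted values, in FFGR2, MFGR1 and FFGR3, are those of libraries of low span slope. The log2 difference was -0.59 (95% interval -1.20 to 0.02, adjusted p = 0.84) and -0.34 without the 9 libraries. HSF4 followed at 0.79 (95% interval -0.06 to 1.65) and DNAJC30 at 0.58 (-0.16 to 1.33), and without the 9 libraries they were at 0.47 and 0.18.

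In differentiated adipocytes DNAJC1 was at 0.43 (95% interval 0.02 to 0.85, unadjusted p = 0.040, limma adjusted p = 0.9998), DNAJB2 at 0.45 (-0.03 to 0.92) and HSPB11 at 0.38 (-0.04 to 0.80). Without the 9 libraries these were 0.10, 0.18 and 0.13. HSPA6 had the lowest estimate, -1.38 (95% interval -2.98 to 0.22), and FCD2, its highest library, carries much of it: the estimate was -0.65 without FCD2. The difference in stage response between growth-restricted and control cells called no member and no gene (0%), with none of the members and 1.04% of all genes at an unadjusted p below 0.05.

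**Figure D5:**
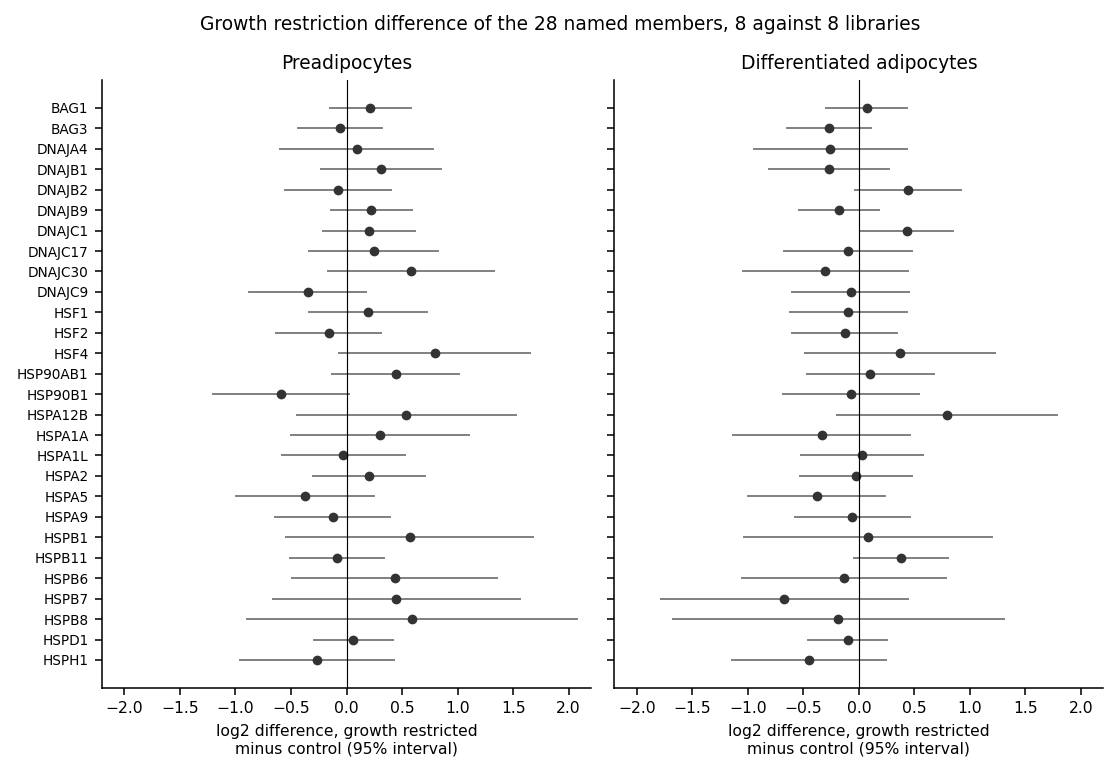
Log2 difference between growth-restricted and control libraries (x axis, growth restricted minus control) of the 28 named members (y axis), in preadipocytes (left) and differentiated adipocytes (right), 8 against 8 libraries. Points are limma estimates over both sexes and lines 95% intervals. No member was called, and all intervals but that of DNAJC1 in differentiated adipocytes (0.02 to 0.85) include 0.

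Growth restriction was also compared within each sex, 4 against 4 libraries, and called no member and no gene in any of the 4 comparisons (0% each). At an unadjusted p below 0.05, DNAJB9 stood in male differentiated adipocytes (-0.64) and DNAJC22 (-1.54) and DNAJC1 (0.65) in female differentiated adipocytes, with adjusted p of 0.9999 or more. These are 1 and 2 of the 65 members, beside 2.69% and 1.51% of all genes. No member stood in preadipocytes of either sex, beside 1.37% of all genes in males and 1.33% in females. DNAJC22 is named here because few members passed this limit, not by the rule for named genes.

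Males and females were compared as a mean over the 4 conditions, and no member and no gene was called (0%). Sex was not compared within single conditions, where the paper reports genes that differ. HSPB7 had the smallest p among the members, with a log2 difference of -1.17 (male minus female, 95% interval -1.95 to -0.38, unadjusted p = 0.0051, adjusted p = 0.89). Its preadipocyte values were 11.1 to 60.4 normalized reads in the 8 male and 29.6 to 156 in the 8 female libraries, and these ranges overlap. DNAJB11 (0.23) and DNAJA2 (0.18), J-domain proteins of the endoplasmic reticulum and the cytosol, also had an unadjusted p below 0.05, which 3.68% of all genes had, beside 3 of the 65 members (4.62%). The intervals and p-values of males against females count both stages of an origin as separate libraries. The replicate numbers pair these stages in FC and MFGR by the check described below. With the numbers as a block, no member and no gene was called (0%).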

How the data were processed

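The data were RNA-seq values of 35219 transcripts in 32 libraries. Per the paper's methods the authors discarded reads of low quality, ran Salmon on an index of the Ensembl sheep genome (Oar_rambouillet_v1.0) and scaled the libraries by the median ratios of DESeq2. The deposited signal is thus a normalized read number per transcript. In a library, 60.4 to 93.1% of the values under 10 lay within 0.05 of a whole multiple of a single step and the rest did not. Whole reads were therefore not recovered for nearly all genes, and no count test was run. The authors' group means and the deposited fold change score, p-value and adjusted p-value columns were not used.

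Transcripts were summed per gene, and genes with at least 10 in at least 4 libraries were kept. All 32 libraries entered a single limma fit (3.58.1, R 4.3.3) of log2(value + 1) with an empirical Bayes trend, and p-values were adjusted over 12737 genes by the Benjamini-Hochberg method. A gene was called at an adjusted p below 0.05 and a fold above 1.5. Differences of low genes are understated because 1 is added before the log. Limits of 95% intervals are those of the same fit.

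Members and lists were chosen with earlier results of these data known. Named members were a set of canonical genes, up to 8 called rises and 8 called falls with the largest differences, every member called for growth or sex, and the 3 with the smallest p in each growth comparison over both sexes, 28 in all. From the other lists, at most 2 called rises and 2 called falls were described with their values. HSPA6 and any further member named were picked after their values were seen. Members were grouped by role from their symbols.

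Samples were grouped by their titles. Same-numbered libraries of an origin deviated together from their group means in MC (r = 0.16 to 0.61 over genes), FC (0.30 to 0.51) and MFGR (0.39 to 0.67) but not in FFGR (-0.40 to 0.56). Pairs of unlike number reached at most 0.21 in MC, 0.13 in FC, 0.16 in MFGR and 0.68 in FFGR. By this check the numbers pair the stages in FC and MFGR. In MC the check is not met throughout, since MC2 had a higher r with MCD1 (0.21) than with MCD2 (0.16). The alternatives were a pseudocount of 0.1, quantile normalization, equal library totals, other filters, own libraries, a replicate block, the span slope as a covariate, library weights, the highest transcript, and leaving out each library. Depth sets the precision of low genes, and the precision given covers the spread between libraries.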

Additional observations from a re-analysis of the deposited data

Results flagged for a closer look

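Within groups of 4 libraries, the highest or lowest library was set apart when its gap to the next exceeded Dixon's 95% critical share of the group's range. Of 232 groups examined, for 29 genes, 28 had such a library. The test would flag about 1 in 20 groups of normally distributed values, but it was run on reads without logs. HSPA6 was also among the genes because of values already seen. The count therefore cannot be set against chance. Of the 28 libraries set apart, 16 were libraries of low span slope. Their part in each value was not tested.

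Among the small heat shock proteins, HSPB1 stood apart in FC2 (4664 normalized reads), MFGRD1 (7198) and FFGRD3 (13670), beside 925 to 1952 in the other libraries of these groups. HSPB7 stood apart in FFGR2 (156), MCD1 (11.0), MFGRD2 (4.19) and FFGRD3 (9.50). HSPB8 was high in MFGR4 (210.1) and FCD2 (44.6) and low in FFGR2 (7.10). In the preadipocytes HSPB8 of MFGR4 exceeded the next library of its group, at 39.8.

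Among the HSP70 and HSP90 genes, HSPA6 stood apart in FC1 (478), FCD2 (1609) and FFGR1 (1313), and in MFGR1 (55.7) where the others held 37.1 to 40.1. HSPA2 was low in FC3 (256). HSP90AB1 was high in MFGRD1 (45261), and HSP90B1 was low in FCD2 (9231), where the other FCD libraries held 30179 to 33138.

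Among the J-domain proteins and HSF4, DNAJB1 was high in FCD2 (1145) and FFGRD3 (995), DNAJB2 in FFGRD1 (261) and DNAJA4 in FCD1 (316). DNAJC1 was high in FFGR3 (1500), DNAJC9 in MFGR3 (336), DNAJC17 in FC2 (305) and DNAJC30 in MFGR3 (14.2) and MCD2 (63.3). HSF4 was high in MFGRD4 (101) and FFGRD1 (75.6).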

How the results depend on the processing

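Over the 4 origins the count of called members was 14 and stayed at 12 to 15 in the alternatives, except at 20 per M (mega) in 3 libraries. That filter tested 49 members and called 8 (16.3%, beside 22.2% of all genes). Leaving out 1 library gave 12 to 14. In MC (5 called) it was 3 with quantile normalization (4.62%, beside 7.87% of all genes), 2 at 20 per M (4.08%, beside 7.43%) and 2 on its own libraries (3.08%, beside 7.82%). With library weights the count in MC was 10, and it was 2 to 5 without 1 library. In FC (2 called) it was 0 with a pseudocount of 0.1 (beside 1.95% of all genes) and 0 on its own libraries (beside 0.4%). It was 1 in FC with equal totals (1.54%, beside 2.27%), without a filter (1.47%, beside 1.88%), at 20 per M (2.04%, beside 2.33%) and with the highest transcript (1.54%, beside 1.82%). The count in FC was 6 with the span slope, 6 with library weights, and 0 to 3 without 1 library. In MFGR (3 called) it was 1 at 20 per M (2.04%, beside 4.84%) and 1 on its own libraries (1.54%, beside 3.45%). The count in MFGR was 6 with the span slope, 6 with library weights, and 2 to 3 without 1 library. In FFGR (5 called) it was 3 at 20 per M (6.12%, beside 8.81%) and 2 on its own libraries (3.08%, beside 2.58%). The count in FFGR was 9 with the span slope, and 3 to 6 without 1 library. The calls over all genes moved too: in FC they were 321 in the fit reported, 51 on its own libraries, 1583 with the span slope (12.4%, beside 9.23% of the members) and 1999 with library weights (15.7%). With library weights 19% of all genes were called in MC (15.4% of the members) and 15.2% in MFGR (9.23%), and with the span slope 16.3% in MFGR (9.23%) and 20.6% in FFGR (13.8%). Apart from the smaller number of members tested at 20 per M, the cause was not tested. Growth and sex comparisons called 0 members in every fit. With library weights 5 of the 12737 genes were called for sex (0.0393%), and 0 to 2 in the growth comparisons. With the highest transcript 1 gene was called for growth in male preadipocytes (0.0079%).

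With the replicate numbers as a block, the count was 4 in FC (6.15%, beside 5.59% of all genes), 5 in MFGR (7.69%, beside 9.01%) and 8 in FFGR (12.3%, beside 17.2%), and the block moved no other count by more than 1.5 times. The numbers do not pair FFGR by the check used.

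Without the 9 libraries of low span slope, chosen after seeing the data, 12 members were called over the 4 origins (18.5%, beside 28% of all genes), 5 in FC (7.69%, beside 5.75%), 5 in MFGR (7.69%, beside 8.68%) and 3 in FFGR (4.62%, beside 8.55%). Without the 3 libraries of high HSPA6, also chosen after seeing the data, its growth difference was 0.56 in preadipocytes and -0.65 in differentiated adipocytes. Of the 14 calls over the origins, HSPA5 was lost in 20 of 42 fits (adjusted p up to 0.146), HSPA9 in 6 and HSPA2 in 1, and the other 11 were called wherever they were tested. HSPB7, HSPB8, HSF4, HSPA12B, HSPA1L and DNAJC30 were tested in 41 fits, since they were too low to pass 20 per M in 3 libraries. Only differences that were not called changed sign: with equal totals HSF1 (0.012), DNAJB9 (0.086) and HSPB11 (0.018), with library weights HSPH1 (-0.11) and HSPB11 (0.069), without the 9 libraries HSPA1A (-0.20), HSPH1 (-0.13), HSPB1 (-0.0054), BAG3 (-0.0125) and HSPB11 (0.11), and HSPB1 without MFGRD replicate 1 (-0.025) or FFGRD replicate 3 (-0.073), in a range of -0.073 to 0.252 without 1 library.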

Other observations

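Outside the chaperones, some marker genes of preadipocytes or stromal cells and of other cell types also differed between the stages. Of the stromal markers, THY1, a surface protein, was higher after differentiation (log2 difference 1.65), and PDGFRB, a platelet-derived growth factor receptor, was lower (-0.82). The other stromal markers tested were not called, with differences of -0.20 (PDGFRA), -1.04 (CD34), -0.76 (COL1A1) and -0.41 (COL3A1). CD163, a scavenger receptor of macrophages, rose from a median of 4.03 to 40.8 normalized reads (2.85, adjusted p = 0.0031), whereas CD68, another macrophage gene, fell by 0.81. PTPRC, carried by all leukocytes, had a median of 0 in both stages, and of the epithelial markers EPCAM did too and none was called.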
